A study of Mus musculus with 11 samples.

Results

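miR-221 and miR-222 are 2 X-linked microRNAs (miRNAs) whose hairpin precursors each give a 3p and a 5p mature arm. The 4 rows of the deposited table named mmu-miR-221-3p, mmu-miR-221-5p, mmu-miR-222-3p and mmu-miR-222-5p were taken, of 2128 rows in all, and every one passed the filter on low counts, as did 541 other rows. They were followed in 11 small RNA libraries of mouse splenic CD8+ T cells sorted as CD4-, CD49dlo and GFP+. The libraries formed 4 groups. Clean_TN (n = 2, replicates 2 and 3) held CD44lo cells of clean mice, called stamped TN. Clean_VM (n = 3) held CD44hi cells of clean mice, called stamped VM. Dirty_TN (n = 3) and Dirty_VM (n = 3) held the same gates from dirty mice. In this field TN stands for true naive and VM for virtual memory, a memory-like state reached without foreign antigen. The labels spell out neither these names nor dirty nor stamped, the strain, age and allele behind GFP are not given in the sources used here, and nothing says that replicates came from separate animals, so p-values measure the spread between these libraries. Small RNA of 10000 sorted cells was taken per sample.

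A miRNA guides Argonaute to messenger RNAs that pair with its seed, the bases at positions 2 to 8, and lowers their output. miR-221-3p and miR-222-3p are processed from a shared primary transcript, are known to repress the cell cycle inhibitor Cdkn1b (p27) and the receptor Kit, and rise in many cells that enter the cell cycle, activated T cells among them. The 5p arms are the less abundant partner strands of the hairpins. These roles are background and were not measured here.

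The mature sequences are shown because the seed decides which members can share targets. They are from RefSeq (GRCm38.p6, the assembly of mm10), which held 3 of the 4 arms, and the seed is in capitals:
miR-221-3p: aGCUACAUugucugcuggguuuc
miR-222-3p: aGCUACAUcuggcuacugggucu
miR-221-5p: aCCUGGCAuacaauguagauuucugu
miR-1928: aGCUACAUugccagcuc
The 3p arms were identical over their first 8 bases and at 11 of 23 positions when aligned from the 5′ end, so they share a seed and differ at 12 positions. All 44 values of the members were whole numbers. Among 1679 mature mouse names in that table, 1 further miRNA, miR-1928 of chromosome 1, had the seed of the 3p arms, and it had a count of 0 in every library. No other name had the seed of miR-221-5p.

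The hairpins lie on the minus strand of chromosome X, Mir222 at chrX:19146893-19146971 and Mir221 at chrX:19146294-19146388, 504 bases apart, with Mir222 upstream. In GENCODE M21 (GRCm38) no other gene overlapped them, and the nearest gene on the upstream side was Gm14636, a processed transcript on the same strand, 10009 bases away. Both are shown 5′ to 3′ with the 3p arm in capitals, to place the arms that were compared:
Mir222: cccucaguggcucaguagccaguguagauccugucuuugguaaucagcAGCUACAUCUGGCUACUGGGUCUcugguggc
Mir221: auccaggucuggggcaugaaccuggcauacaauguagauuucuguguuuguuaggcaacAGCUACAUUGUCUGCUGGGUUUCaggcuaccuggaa

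Total estimated counts per library ran from 2614396 to 16312004, and 5 libraries, at least 1 in each group, had under 5000000. Levels are CPM, counts scaled to a common library size, on totals scaled by TMM, a method that aligns libraries on the bulk of their miRNAs, so 1 count stood for 0.0601 to 0.411 CPM. Of the listed lymphocyte miRNAs miR-150-5p was the most abundant, between 66249 and 134280 CPM. The others were lower: miR-342-3p at 2087 to 5588 CPM, miR-142a-5p at 1069 to 3916, miR-142a-3p at 1388 to 1967 and miR-181a-5p at 482 to 2223. miRNAs of other cell types were present at lower levels. The erythroid miR-486a-5p ranged from 21.4 to 115 CPM and miR-451a from 5.37 to 28.1, and the stromal miR-143-3p from 31.6 to 94.1, and the endothelial miR-126a-3p reached 50.3 CPM. The myeloid miR-223-3p ranged from 0.257 to 3.12 CPM and the erythroid miR-144-3p from 0 to 0.501.

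miR-222-3p was the member that separated VM from TN cells in both environments. In TN cells its level was 157 and 161 CPM in clean mice (replicates 2 and 3) and 153, 155 and 137 CPM in dirty mice (replicates 1, 2 and 3). In VM cells it was 233, 261 and 260 CPM in clean mice and 224, 285 and 302 CPM in dirty mice. Every VM library thus lay above every TN library of its environment, as in 7.52% of all 545 tested rows, and the environments overlapped within VM cells. Clean_TN had a mean of 159 ± 2.67 CPM (SD, n = 2), Clean_VM of 252 ± 15.8 (n = 3), Dirty_TN of 148 ± 9.47 (n = 3) and Dirty_VM of 270.1 ± 40.8 (n = 3). A bulk library cannot tell more cells of a kind from more miRNA per cell.

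Averaged over the environments, the log2 difference of VM minus TN cells for miR-222-3p was 0.76 ± 0.13 (SE), or 1.70-fold, with an adjusted p of 0.0012 (edgeR quasi-likelihood test, Benjamini-Hochberg over 545 rows). It was the sole member to pass, where 23.7% of all rows passed, 11.4% as higher, and the median of all rows was 0.09. In dirty mice alone miR-222-3p rose by 0.87 ± 0.18 on the log2 scale (adjusted p = 0.00603), and in clean mice alone by 0.66 ± 0.20 (edgeR adjusted p = 0.0366). The calls in dirty mice and over both environments held when any 1 library was left out. The clean call did not: it was lost in 6 of 11 such fits, with an adjusted p between 0.0282 and 0.268 over them, and also under scaling to library totals (log2 difference 0.44, adjusted p = 0.157).

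**Figure D1:**
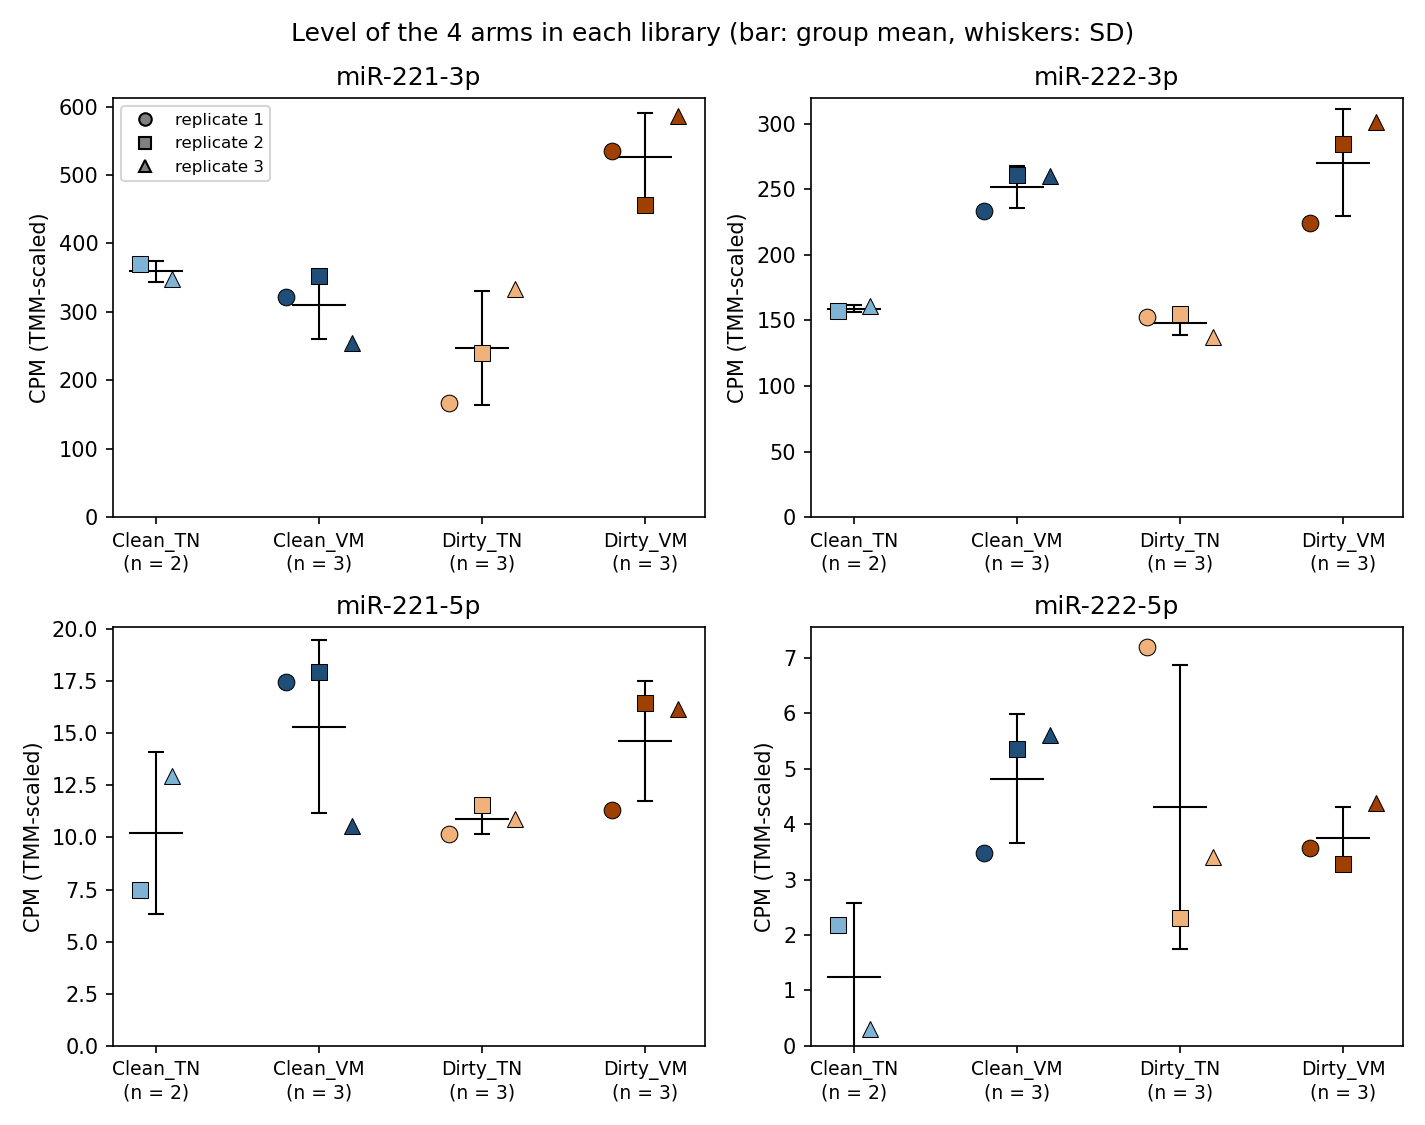
Level of each arm in CPM (vertical axis, TMM-scaled, from 0) by group (horizontal axis); symbols are libraries by replicate number, bars the group mean and whiskers the SD. For miR-222-3p all VM libraries lie above all TN libraries, while for miR-221-3p the 3 Dirty_VM libraries, at 456 to 586 CPM, lie above the other 8.

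miR-221-3p carries the same seed. It stood at 370 and 348 CPM in Clean_TN (replicates 2 and 3) and at 321, 352 and 255 CPM in Clean_VM (replicates 1, 2 and 3), so the clean groups overlapped. In dirty mice it stood at 167, 240 and 334 CPM in Dirty_TN and at 536, 456 and 586 CPM in Dirty_VM, and these did not overlap, as in 16.9% of all rows with VM higher. Dirty_VM was the highest group, with a mean of 526 ± 65.4 CPM (SD, n = 3). The others followed as Clean_TN at 359 ± 15.2 (n = 2), Clean_VM at 310 ± 49.7 (n = 3) and Dirty_TN at 247 ± 83.6 (n = 3). Clean_VM overlapped both of its neighbours in that order, and Dirty_TN was the most variable group.

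In dirty mice miR-221-3p was 2.13-fold higher in VM than in TN cells (log2 difference 1.09 ± 0.24, edgeR adjusted p = 0.00911). It and miR-222-3p were thus 2 of 4 members that passed there, both upward, where 12.1% of all rows passed and 6.24% passed as higher. In clean mice its log2 difference was -0.21 ± 0.27 (95% interval -0.79 to 0.36, edgeR adjusted p = 0.622), and miR-222-3p was the 1 member that passed, where 17.4% of rows passed and 9.72% passed as higher. Of the clean calls over all rows 53 were higher and 42 lower, a split that became 40 and 55 under library totals. The average of both environments was 0.44 ± 0.18 for miR-221-3p, which missed the threshold (edgeR adjusted p = 0.106). Without Dirty_VM replicate 3 the dirty difference was 1.00 with an adjusted p of 0.0567. Without Dirty_TN replicate 3, the TN library with the highest dirty level, the averaged difference was 0.55 with an adjusted p of 0.0185. This was the 1 of 23 alternative fits in which the average passed.

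Whether the subset difference itself changed with the environment was tested as an interaction, the VM minus TN difference in dirty mice minus that in clean mice. For miR-221-3p it was 1.30 ± 0.36 (95% interval 0.53 to 2.07, unadjusted p = 0.00289, adjusted p = 0.102 in edgeR), so it did not pass. None of the 545 rows passed this test in edgeR (0%), with 93 (17.1%) at an unadjusted p under 0.05, and none passed by limma-voom. DESeq2 called 25 rows, miR-221-3p among them (1.32, adjusted p = 0.0179). With no filter beyond 1 count edgeR called it too (1.29, adjusted p = 0.0106; 30 rows in all). Without Dirty_TN replicate 3 edgeR called 73 rows and gave miR-221-3p 1.77 with an adjusted p of 0.00194. Over all 11 fits that left out a library its adjusted p lay between 0.00194 and 0.312. For miR-222-3p the interaction was 0.20 ± 0.26 (95% interval -0.36 to 0.77, edgeR adjusted p = 0.766).

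**Figure D2:**
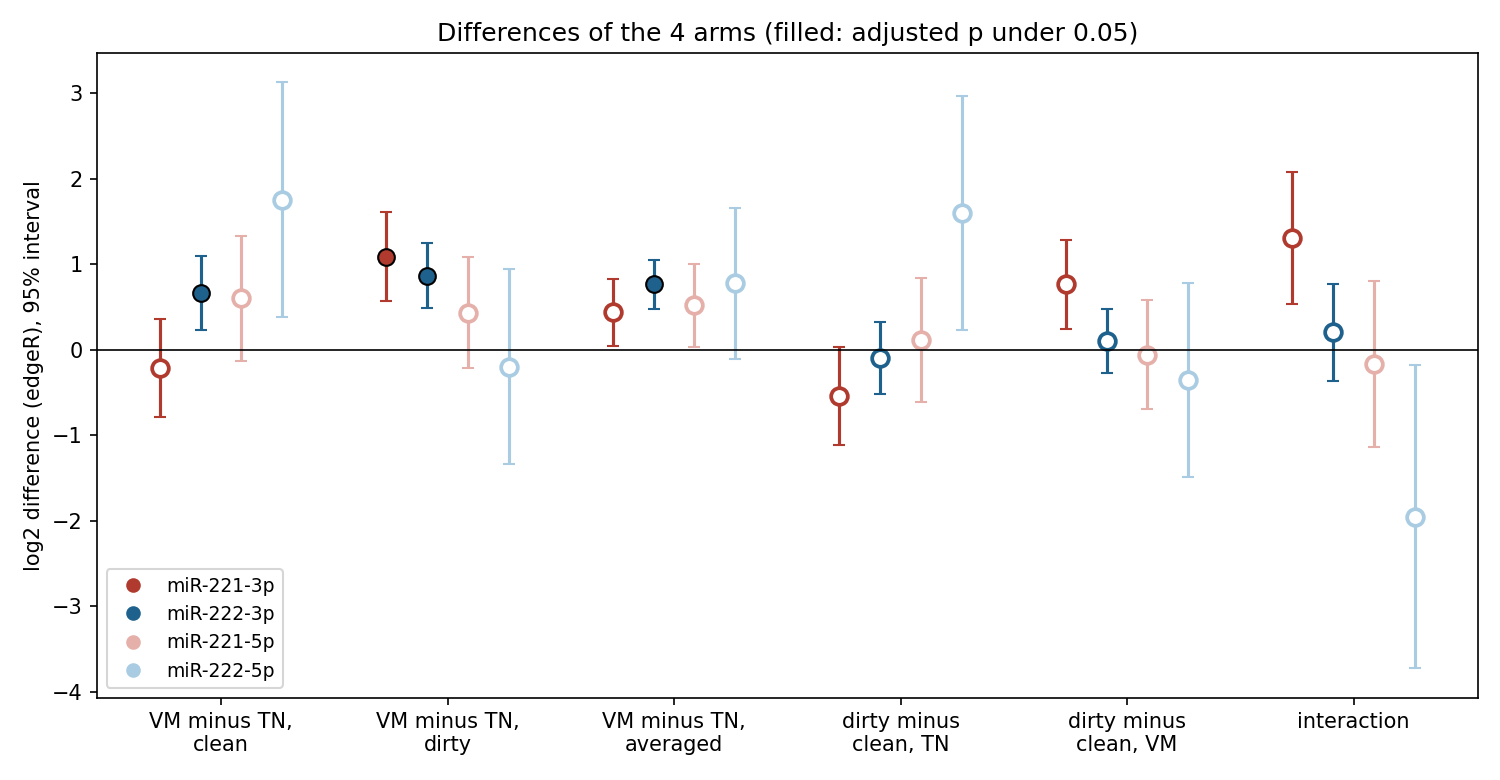
Log2 difference of each arm (vertical axis) in 6 comparisons (horizontal axis), as estimated by edgeR with 95% intervals; filled symbols have an adjusted p under 0.05. miR-222-3p is filled in all 3 comparisons of VM with TN, miR-221-3p in dirty mice alone.

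Comparing dirty with clean mice within a subset asked how the environment relates to the level of the pair. No row passed in TN cells, in VM cells or averaged over both in edgeR (0% each), with 38 (6.97%), 81 (14.9%) and 28 (5.14%) rows at an unadjusted p under 0.05. DESeq2 called 3, 14 and 1 rows and limma-voom 0, 1 and 1. miR-221-3p had a log2 difference of 0.76 ± 0.24 in VM cells (edgeR unadjusted p = 0.00716, adjusted p = 0.201), where the Dirty_VM libraries all lay above the Clean_VM libraries, as in 12.1% of all rows. In TN cells miR-221-3p had -0.54 ± 0.26 (edgeR adjusted p = 0.568), with the Dirty_TN libraries all below the Clean_TN libraries, as in 8.99% of rows. Without Dirty_TN replicate 3 both passed in edgeR, at -1.04 in TN cells (adjusted p = 0.0270) and 0.73 in VM cells (adjusted p = 0.0478). For each of them this was the 1 of 23 alternative fits that passed. The VM comparison holds no TN library, and its estimate was no larger than with all libraries. For miR-222-3p both estimates were near 0, with -0.10 ± 0.20 in TN cells (95% interval -0.52 to 0.32, edgeR adjusted p = 0.904) and 0.10 ± 0.17 in VM cells (95% interval -0.27 to 0.48). The Dirty_TN libraries of miR-222-3p, at 137 to 155 CPM, also all lay below the Clean_TN libraries, at 157 and 161, as in 8.99% of rows. Averaged over both subsets the log2 difference of miR-222-3p was 0.00 ± 0.13 and that of miR-221-3p 0.11 ± 0.18.

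The 3p arms share a seed, so their summed level is the amount of this seed counted in a library. For Clean_TN the sum was 518 ± 12.5 CPM (SD, n = 2) and for Clean_VM 561 ± 49.4 (n = 3), and their ranges overlapped (509 to 527 and 515 to 614). For Dirty_TN it was 395 ± 75.6 CPM (n = 3) and for Dirty_VM 796 ± 79.6 (n = 3). Their ranges, 320.2 to 472 and 741 to 887, did not overlap, which follows from each arm not overlapping there. These sums are given without a test, and they weight both arms by how well the library preparation captures them, which differs between sequences. In a list of the 545 rows by the mean of the 4 group means, miR-221-3p was 98th at 360.5 CPM, between miR-186-5p and miR-200a-3p, and miR-222-3p 112th at 207 CPM, between miR-183-5p and miR-149-5p.

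Both counts of a ratio come from the same library, so the balance within the pair needs no scaling. In clean mice miR-221-3p was 2.36 and 2.17 times as frequent as miR-222-3p in TN libraries (replicates 2 and 3), and 1.38, 1.35 and 0.980 times in VM libraries (replicates 1, 2 and 3). Every clean TN ratio lay above every clean VM ratio, a difference of -0.89 on the log2 scale for VM minus TN. This was not tested within clean mice. Of levels, 28.3% of all rows set every Clean_VM library above every Clean_TN library, the opposite direction to this ratio. No such share was taken for this or the other ratios, so their non-overlaps have no background to be read against. In dirty mice the ratio was 1.09, 1.55 and 2.43 in TN and 2.39, 1.60 and 1.94 in VM libraries, which overlapped (0.28). Counting error, with reads taken as independent, was small beside this spread, with a standard error of at most 0.0799 on the log2 scale. As a share of the 3p counts of the pair, miR-221-3p ranged from 49.5% (exact 95% binomial interval 48.1 to 50.9%) in Clean_VM replicate 3 to 70.9% (69.7 to 72.0%) in Dirty_TN replicate 3. Intervals cover counting error only. They may be too narrow even for that, since reads without molecular identifiers are not independent molecules.

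Averaged over the environments, the VM minus TN difference of this log2 ratio was -0.30 (two-sided exact permutation test within environments, p = 0.33, adjusted p = 0.905 over 6 tests of 3 ratios). For dirty minus clean, averaged over the subsets, it was 0.09 (two-sided exact permutation test within subsets, p = 0.775, adjusted p = 0.905). Neither average passed. In VM cells the Dirty_VM ratios all lay above the Clean_VM ratios (difference 0.68), while in TN cells the environments overlapped. Neither was tested within its subset.

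miR-221-5p, the partner strand of miR-221-3p, was scarce in every library. It lay between 7.47 and 17.9 CPM, from 38 to 269 counts. Clean_TN averaged 10.2 ± 3.88 CPM (SD, n = 2), Clean_VM 15.3 ± 4.14 (n = 3), Dirty_TN 10.9 ± 0.693 (n = 3) and Dirty_VM 14.6 ± 2.88 (n = 3). The VM and TN libraries overlapped in both environments. Its averaged log2 difference of VM minus TN was 0.52 ± 0.23 (95% interval 0.03 to 1.01, edgeR adjusted p = 0.122), with 0.60 ± 0.34 in clean and 0.43 ± 0.30 in dirty mice. Its interaction was -0.17 ± 0.45, and its dirty minus clean differences were 0.11 ± 0.34 in TN and -0.06 ± 0.30 in VM cells. None of these passed.

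The proportion of the arms of the miR-221 hairpin was read as the share of miR-221-5p. It made up 1.98% (95% exact binomial interval 1.58 to 2.45%) and 3.58% (2.61 to 4.80%) of the hairpin's counts in Clean_TN replicates 2 and 3. In Clean_VM replicates 1, 2 and 3 it made up 5.15, 4.84 and 3.96%, all above Clean_TN. In dirty mice it made up 5.72, 4.59 and 3.16% in Dirty_TN and 2.07, 3.48 and 2.68% in Dirty_VM, and the groups overlapped. The averaged difference of the log2 ratio of miR-221-3p to miR-221-5p was -0.05 for VM minus TN (two-sided exact permutation test, p = 0.895) and 0.04 for dirty minus clean (exact permutation p = 0.905), each with an adjusted p of 0.905. Without a test of its own, VM minus TN of this ratio was -0.82 in clean mice, where the libraries did not overlap, and 0.72 in dirty mice, where they did. Dirty minus clean, also not tested within a subset, was 0.81 in VM cells, with all Dirty_VM ratios above all Clean_VM ratios. In TN cells it was -0.73, and the libraries overlapped.

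**Figure D3:**
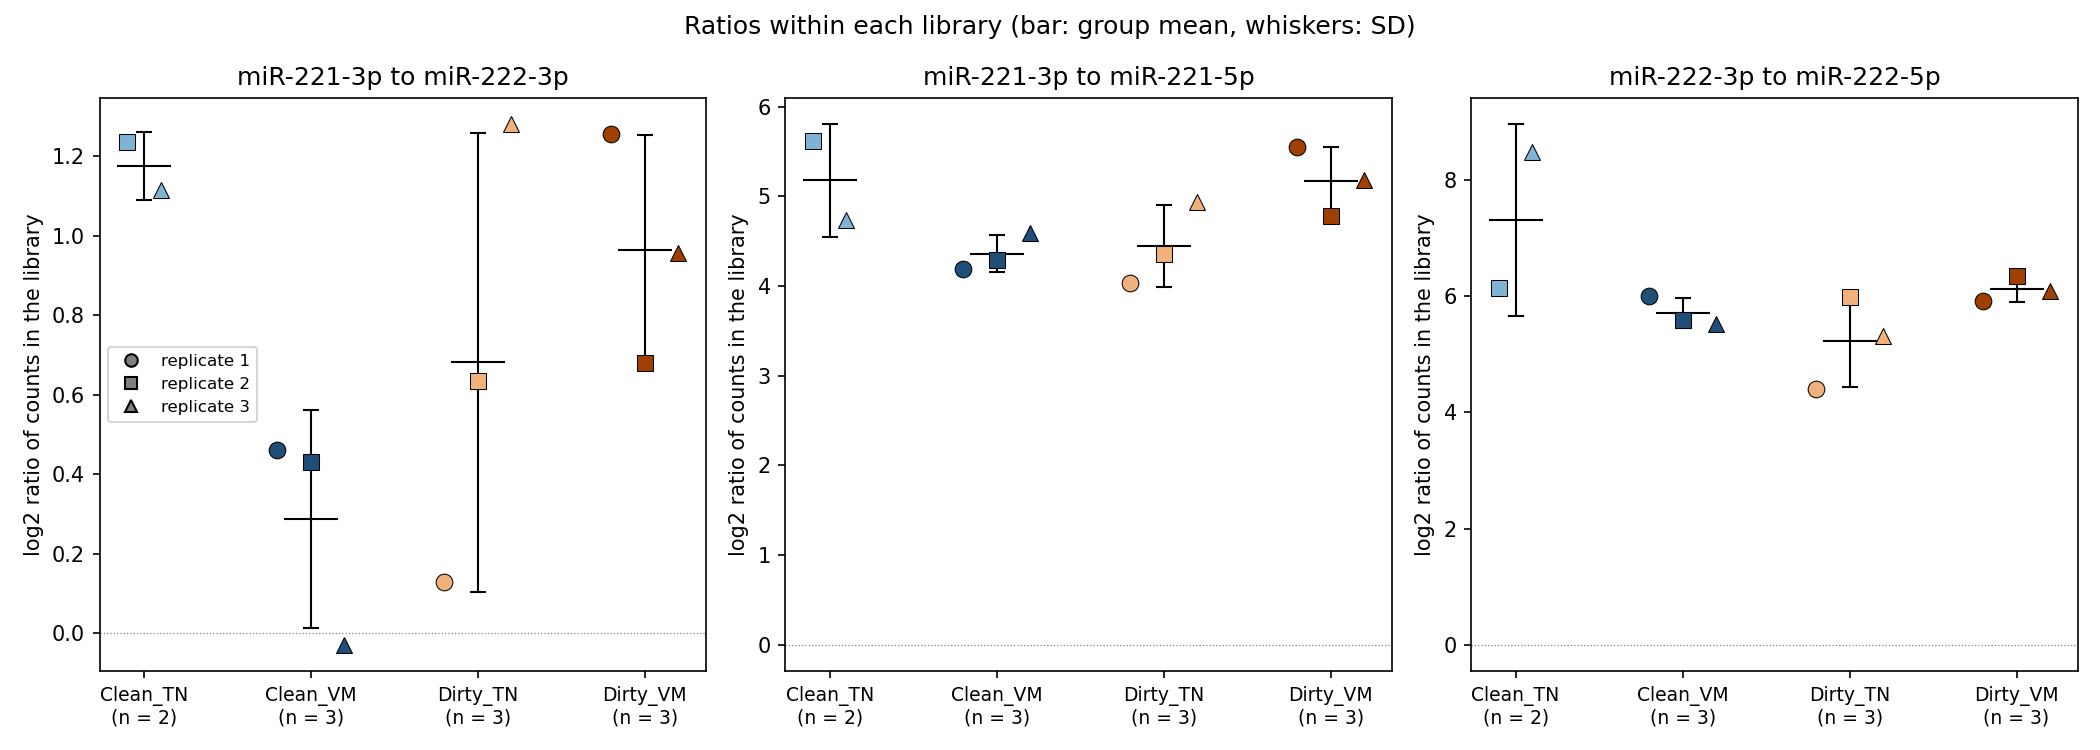
Log2 ratio of counts within each library (vertical axes) by group (horizontal axes) for the pair of 3p arms and for the arms of each hairpin; symbols are libraries by replicate number, bars group means and whiskers SDs. The ratio of miR-221-3p to miR-222-3p is lower in every Clean_VM than in every Clean_TN library, and the dirty groups overlap. No test was made within an environment, no share of such non-overlap over other ratios was taken, and the averages over environments did not pass.

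miR-222-5p was near the limit of counting, with 1 to 73 counts per library and 0.301 to 7.20 CPM. Clean_TN held 24 counts in replicate 2 and 1 count in replicate 3, or 2.19 and 0.301 CPM. Clean_VM held 3.49, 5.36 and 5.62 CPM, Dirty_TN 7.20, 2.31 and 3.41 CPM, and Dirty_VM 3.57, 3.29 and 4.38 CPM (replicates 1, 2 and 3). The clean VM libraries lay above the clean TN libraries, as in 28.3% of all rows, and the dirty groups overlapped.

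The log2 difference of VM minus TN cells for miR-222-5p was 1.75 ± 0.64 in clean mice (95% interval 0.38 to 3.13, edgeR adjusted p = 0.0765) and -0.20 ± 0.53 in dirty mice (edgeR adjusted p = 0.863). The average was 0.78 ± 0.41 (edgeR adjusted p = 0.197) and the interaction -1.95 ± 0.82 (edgeR adjusted p = 0.244). For dirty minus clean miR-222-5p had 1.60 ± 0.63 in TN cells (edgeR adjusted p = 0.559), where the libraries did not overlap, as in 14.3% of all rows with dirty higher, and -0.35 ± 0.53 in VM cells (edgeR adjusted p = 0.808). Leaving out either Clean_TN library moved the clean difference, to between 1.04 and 3.89 over all fits without 1 library. The highest, 3.89, was without Clean_TN replicate 2, a fit that left 1 Clean_TN library, the one with 1 count. In the library with 1 count, miR-222-5p made up 0.187% of the hairpin's counts (95% exact binomial interval 0.00473 to 1.04%), against 1.14 to 4.49% in the others. For the ratio of miR-222-3p to miR-222-5p the averaged differences were -0.36 for VM minus TN (two-sided exact permutation test, p = 0.67) and -0.83 for dirty minus clean (exact permutation p = 0.31), each with an adjusted p of 0.905. Its libraries did not overlap for VM minus TN in clean mice (-1.60) or for dirty minus clean in TN cells (-2.08). Both take in the Clean_TN library with 1 count, and neither was tested alone. The libraries overlapped in dirty mice (0.89) and in VM cells (0.41).

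Correlation over the 11 libraries, which share 4 groups and differ in depth, describes how the members moved with each other. Pearson's r of log2 CPM was 0.53 between miR-221-3p and miR-222-3p, 0.36 between the arms of miR-221 and 0.38 between those of miR-222. Among 245 other miRNAs with a mean of at least 10 CPM, those most like miR-222-3p were miR-149-5p (r = 0.988), miR-139-5p (r = 0.979), miR-504-5p (r = 0.970), miR-200a-3p (r = 0.936) and miR-5099 (r = 0.907). They were chosen over the same libraries in which miR-222-3p separates VM from TN cells, so their own VM minus TN differences, 0.72 to 1.74 on the log2 scale, follow from the choice and are given as a description. miR-149-5p, next to miR-222-3p in abundance, had means of 123 ± 5.29 CPM (SD, n = 2) for Clean_TN, 277 ± 16.0 (n = 3) for Clean_VM, 122 ± 7.19 (n = 3) for Dirty_TN and 279 ± 55.2 (n = 3) for Dirty_VM. Its log2 difference was 1.18 ± 0.14, against 0.76 ± 0.13 for miR-222-3p.

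The miRNAs most like miR-221-3p were a different set, namely miR-3068-5p (r = 0.946), miR-15b-3p (r = 0.920), miR-664-3p (r = 0.911), miR-425-5p (r = 0.899) and miR-874-3p (r = 0.890). They were chosen in the same way, and their differences are likewise a description. miR-15b-3p had means of 957 ± 65.4 CPM (SD, n = 2) for Clean_TN, 743 ± 172 (n = 3) for Clean_VM, 675 ± 155 (n = 3) for Dirty_TN and 1171 ± 80.7 (n = 3) for Dirty_VM. Like miR-221-3p it was highest in Dirty_VM, with a log2 difference of 0.79 ± 0.22 in dirty mice (edgeR adjusted p = 0.0317) and -0.37 ± 0.24 in clean mice (edgeR adjusted p = 0.317). miR-3068-5p had 0.86 ± 0.23 in dirty mice, which passed, and -0.03 ± 0.25 in clean mice. In dirty mice miR-664-3p (0.81), miR-874-3p (0.91) and miR-425-5p (0.24) did not pass, and none of these miRNAs passed in clean mice.

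**Figure D4:**
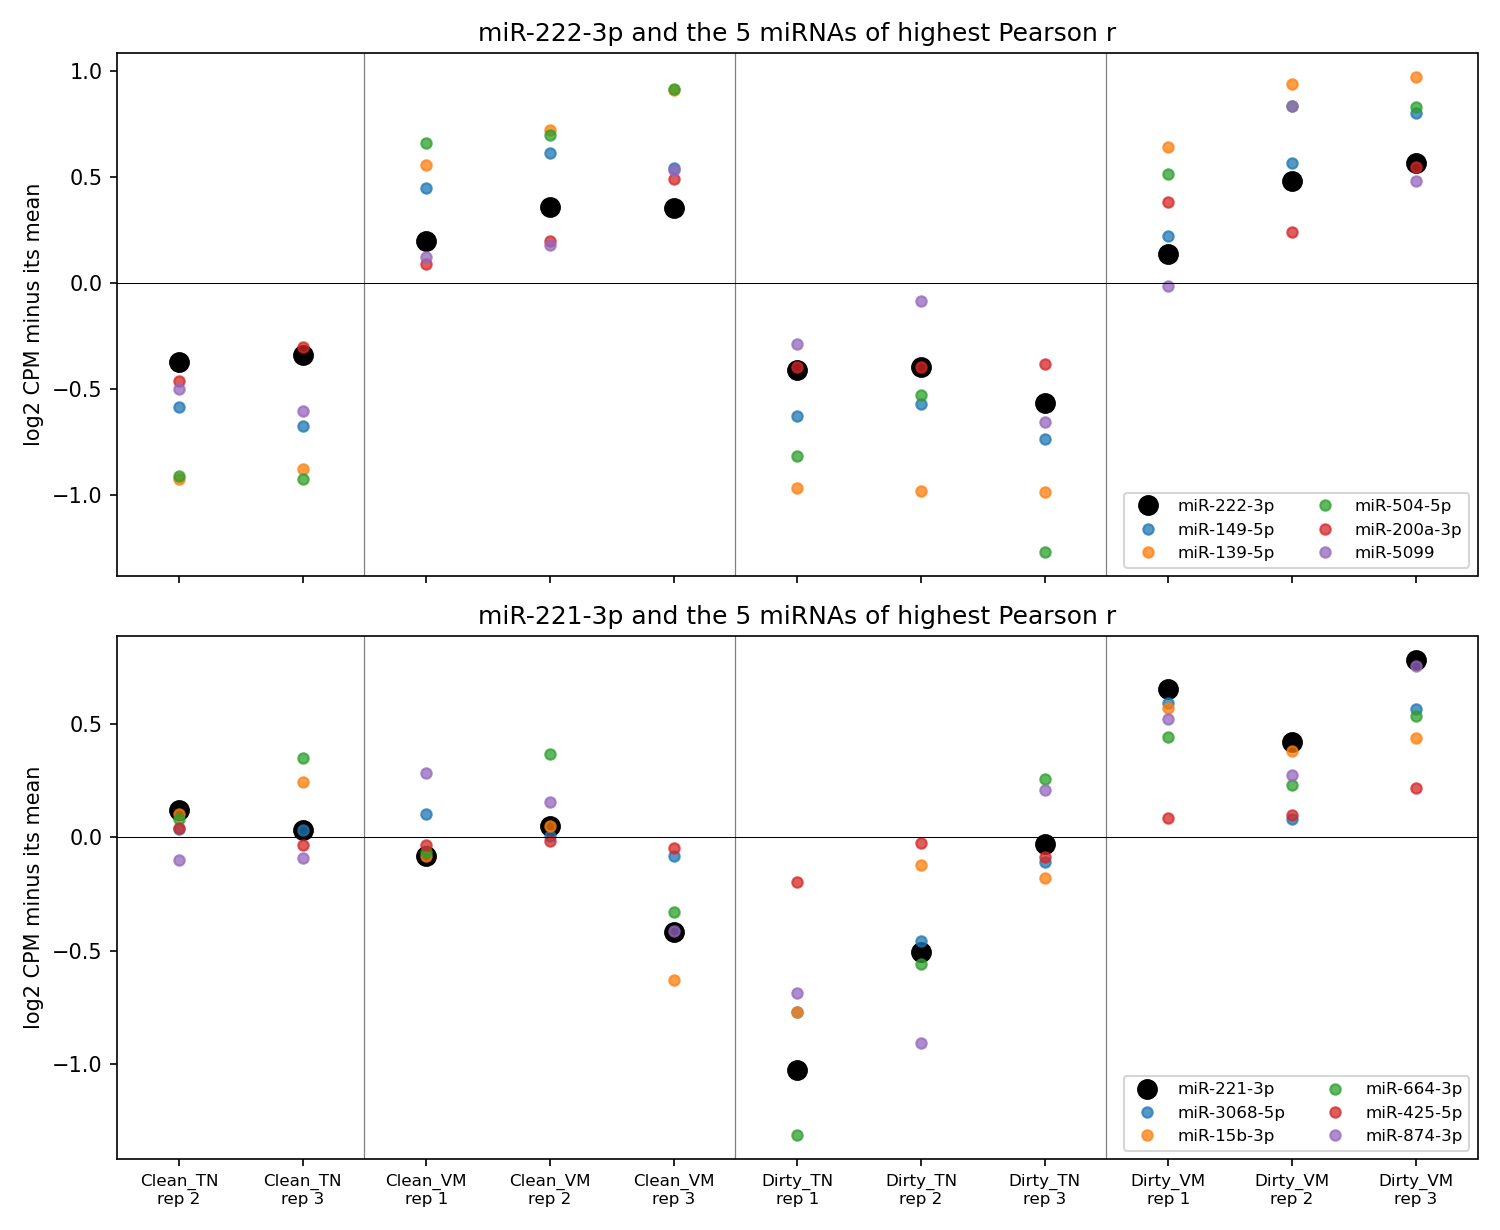
Log2 CPM of each miRNA minus its own mean over the libraries (vertical axes) for 11 libraries (horizontal axis), with miR-222-3p above and miR-221-3p below, each as large black points beside the 5 miRNAs of highest Pearson r. The upper set is below 0 in every TN library, and each miRNA of the lower set has its highest value in a Dirty_VM library.

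Of 15 other miRNAs linked to T cell activation and memory, 14 were tested, and over both environments 7 rose in VM cells, 3 fell and 4 did not pass, where 23.7% of all rows passed and 11.4% passed as higher. Their median log2 difference was 0.55 against 0.09 for all rows. The list was chosen with earlier results of these data known, so its counts and median are a description. The largest rise was that of miR-21a-5p, a miRNA that activated T cells induce, at 1.88 ± 0.13 (edgeR adjusted p = 6.5e-07), so miR-222-3p at 0.76 lay between miR-155-5p (0.60 ± 0.15, adjusted p = 0.0118) and miR-182-5p (0.91 ± 0.23, adjusted p = 0.0105). miR-155-5p is needed for effector CD8+ responses. miR-146a-5p, which restrains NF-kB signalling, rose by 1.06 ± 0.16, miR-183-5p by 1.10 ± 0.27, miR-96-5p by 1.05 ± 0.17 and miR-31-5p by 1.45 ± 0.35. Of these 7, miR-21a-5p, miR-146a-5p and miR-96-5p also passed as higher in dirty mice. There miR-155-5p had 0.25 ± 0.20, miR-182-5p 0.04 ± 0.30, miR-183-5p 0.02 ± 0.35 and miR-31-5p 1.02 ± 0.45, which did not pass. In clean mice they had 0.95, 1.79, 2.19 and 1.88 and passed. miR-222-3p had 0.66 in clean and 0.87 in dirty mice. Those that fell were miR-132-3p, at -1.36 ± 0.17, miR-24-3p, at -0.62 ± 0.12, and miR-27a-3p, at -0.59 ± 0.12. In dirty mice 3 of the 14 rose and 2 fell, where 12.1% of all rows passed and 6.24% as higher. In clean mice 7 rose and 3 fell, where 17.4% of all rows passed and 9.72% as higher.

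Hairpins on chromosome X gave 54 other tested rows, found for 531 of the 545 rows whose hairpin had a position in RefSeq. Over both environments 3 of the 54 rose in VM cells and 7 fell, with a median log2 difference of -0.17, where 23.7% of all rows passed and 11.4% as higher. The 3 that rose were miR-504-5p at 1.63 ± 0.16, miR-374b-5p at 0.99 and miR-421-3p at 0.67, the last of adjacent hairpins with miR-374b-5p. Of those that fell, miR-450b-3p, miR-542-3p, miR-351-5p and miR-322-3p lie together at chrX:53047997-53054349. miR-106a-5p and miR-19b-3p are also neighbours, and the name miR-19b-3p is shared with another hairpin. The remaining one was miR-532-3p. Rows of neighbouring hairpins need not be separate observations. The nearest tested neighbours of the pair by position, miR-1198-5p and miR-1198-3p on the left and miR-363-5p and miR-363-3p on the right, had log2 differences of 0.35, 0.28, -0.32 and 0.17 and did not pass in edgeR. Their hairpins are far off, starting at chrX:7807101 and chrX:52741693 against chrX:19146294 for Mir221, so they do not describe the locus itself.

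miRNAs of other cell types that a spleen sort could carry were followed beside the pair, and their counts of calls are small lists to be read against the 11.4% of all rows that passed as higher. Of 5 listed lymphocyte miRNAs 2 fell in VM cells over both environments and 3 did not pass, where 23.7% of all rows passed. The pair is known to be abundant in endothelial cells, whose miR-126a-3p rose in VM cells by 0.87 ± 0.24 (edgeR adjusted p = 0.0208), 1 of 2 listed endothelial and platelet miRNAs. The summed level of these 2 ranged from 18.4 to 19.3 CPM in Clean_TN, 21.7 to 47.7 in Clean_VM, 15.3 to 29.7 in Dirty_TN and 29.6 to 53.0 in Dirty_VM. Of 3 tested erythroid miRNAs 1 rose, and the sum of the list was 35.2 to 45.9, 61.5 to 137, 38.1 to 76.2 and 64.1 to 109 CPM in the same order. Of 4 stromal miRNAs 1 rose, with sums of 46.7 to 58.6, 67.4 to 113, 54.5 to 85.2 and 80.9 to 130 CPM, and the 1 myeloid miRNA tested did not pass. Their part in the differences of miR-221-3p and miR-222-3p was not tested.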

How the data were processed

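RNA of 11 samples (60 to 100 ng each) went into NEBNext small RNA libraries selected for inserts of about 18 to 35 bp, per the labels' protocols. The authors deposited expected counts (estimated counts) per mature miRNA and hairpin, on mm10 per the submitters' processing notes. The aligner and counter are not given in the sources used here. Of 2128 rows, 120 that repeated a name and all values were dropped, and counts were rounded. filterByExpr kept 545 rows. One edgeR 4.0.16 quasi-likelihood model (TMM, robust, 4 group means, 7 residual degrees of freedom) gave all contrasts, with Benjamini-Hochberg adjustment over the 545 rows and a threshold of 0.05. A standard error is the absolute log2 difference divided by the square root of F. The averaged VM minus TN test was run on simulated data with a single fixed spread, and the other contrasts were not checked in this way. Ratios used a pseudocount of 0.5 and exact permutation within environments or subsets. Likeness is Pearson's r of log2 CPM (prior count 2), the 5 highest being named. The other miRNAs named are those nearest in abundance or position, those of the lists, and those sharing a seed. Alternatives used limma 3.58.1, DESeq2 1.42.0, other scalings, filters and blocks, and left out libraries. The members and lists were chosen with earlier results of these data known.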

Additional observations from a re-analysis of the deposited data

How the results depend on the processing

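Of 641 alternative values for the 28 differences of the 4 arms, 550 kept direction and side of the threshold, 21 lost a call, 10 gained one and 60 changed sign, the last all in differences that had not passed. The cause was not tested, beyond the fewer libraries or rows that some alternatives hold. For miR-222-3p in clean mice the call was lost in 14 of 24 alternatives. Its log2 difference was 0.44 under library totals, 0.63 with no filter beyond 1 count, 0.65 with depth class as a term and 0.56 when only the groups compared were fitted, and 0.44 to 0.76 without 1 library. Whether replicate numbers paired the samples could not be told. Deviations of same-numbered libraries from their group means correlated at -0.55 to 0.42 over 15 pairs (median -0.19), 6 of them above 0.1. Of 30 differently numbered pairs (median 0.077) 15 were above 0.1. Within clean mice the same-numbered pairs had 0.25 and -0.26, and within dirty mice -0.46, 0.24 and 0.42. Of these values the positive ones joined libraries both over or both under 5000000 counts, and the negative ones joined 1 of each. The other same-numbered pairs cross environments, and the deviations of the 2 Clean_TN libraries mirror each other. With a replicate block the clean value was 0.71 (edgeR adjusted p = 0.0696), with a replicate block within environment 0.71 (adjusted p = 0.0942), and the block moved the clean count of calls from 95 to 56. Shallow libraries alone (1 residual degree of freedom) gave miR-222-3p 0.50 averaged, 0.31 in clean and 0.70 in dirty mice and miR-221-3p 1.04 in dirty mice, and deep libraries alone gave 0.84, 0.69, 1.00 and 1.14, and none of these passed. Without 1 library miR-221-3p ranged from 0.83 to 1.44 in dirty mice, 0.25 to 0.55 averaged, -1.04 to -0.43 for dirty minus clean in TN and 0.61 to 0.94 in VM cells, and 1.16 to 1.77 for the interaction, which passed by DESeq2 (1.32) and with no filter (1.29). miR-222-5p in clean mice passed with no filter (1.75) and with the depth term (1.72). Without Clean_TN replicate 2, which left 1 Clean_TN library, miR-222-5p had 3.89 in clean mice and 1.87 averaged.

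For dirty minus clean averaged, miR-222-3p had -0.070 by DESeq2, -0.0031 by limma-voom, -0.070 with DESeq2 size factors, -0.037 under library totals, -0.063 with no filter, -0.050 with 10 CPM in 2 libraries, -0.085 with summed rows, -0.041 in shallow and -0.060 in deep libraries, and -0.15 to 0.024 without 1 library. miR-221-5p had -0.027, -0.041 (size factors), -0.0023, -0.029, -0.021, -0.052 and -0.33 in the same order without limma-voom and deep, and -0.18 to 0.20. miR-221-3p had -0.024 in shallow libraries and -0.15 to 0.17. For dirty minus clean in VM cells miR-222-3p had -0.0031 with summed rows and -0.13 to 0.21, miR-221-5p 0.020 by limma-voom, 0.045 under totals, 0.074 in deep libraries and -0.27 to 0.15, and miR-222-5p 0.019 in shallow libraries. In TN cells miR-221-5p had -0.050 under totals, -0.34 in shallow libraries and -0.34 to 0.45. Its interaction was 0.095 under totals, 0.035 in shallow libraries and -0.50 to 0.31. miR-222-5p in dirty mice had 0.12 with the depth term, 0.56 in shallow libraries and -0.47 to 0.32. The VM minus TN difference of the ratio of miR-221 arms was 0.026 without strata, 0.13 in shallow libraries and -0.27 to 0.17, and for dirty minus clean -0.20 in deep libraries and -0.19 to 0.26. That of the miR-222 arms was 0.33 in deep libraries and -0.94 to 0.23, and the pair's dirty minus clean ratio -0.058 to 0.23.

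The counts of all rows called, 129 averaged, 95 in clean and 66 in dirty mice and 0 elsewhere, moved by over 1.5 times as follows. Dirty minus clean (TN, then VM, then their average) and the interaction gave 3, 14, 1 and 25 by DESeq2 and 4, 16, 1 and 30 with no filter. With 10 CPM in 2 libraries VM cells gave 2 and the interaction 16, limma-voom gave 1 in VM cells and 1 averaged, library totals 2 in VM cells, and the fit of Dirty_VM and Clean_VM alone 18. Shallow libraries alone gave 35 averaged, 30 in clean and 17 in dirty mice, 4 for dirty minus clean averaged and 1 for the interaction, and deep libraries alone 47, 27 and 10. Without 1 library the counts ran from 33 to 120 in clean mice (33 without Clean_TN replicate 3, 34 without Clean_TN replicate 2, 61 without Clean_VM replicate 3), 42 (without Dirty_VM replicate 3) to 94 in dirty mice, 0 to 28 in TN and 0 to 26 in VM cells, and 0 to 73 for the interaction, the last 3 highest without Dirty_TN replicate 3. Library totals moved the median log2 difference of all rows in clean mice from 0.08 to -0.13 and that of the interaction from -0.05 to 0.24. Depth limits miR-222-5p most, at 1 to 73 counts.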
